A study of Mus musculus with 14 samples.

Results

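Autosomal gene expression was compared between male and female mice in the PiC neurons that project to PrL. The comparison used 8 of the 14 libraries of the series, namely every library labelled PiC-PrL, with 4 from females and 4 from males, and genes of the sex chromosomes and mitochondria were left out of the fit. All mice were wild-type C57BL/6 and carried AAVretro-EGFP, a virus taken up at axon ends and carried back to the cell body, which had been placed in PrL at 0.1 µl per injection. Green cells were drawn into a pipette of 60 to 100 µm tip width, 4 to 5 cells were pooled per tube, and polyadenylated RNA was amplified by SMART-Seq2. PiC, PrL and MeA are written as in the labels. The remaining 6 libraries, 3 per sex, came from PiC neurons labelled from MeA and are used below for 1 comparison. The sources used here give no age, cycle stage or animal for a tube, so each p-value measures the spread between tubes, which may be technical. The virus labels by projection and not by cell type, so a tube can hold neurons of several types.

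Sex differences in brain gene expression arise from the sex chromosomes and from gonadal steroids. Estrogen, androgen and progesterone receptors are transcription factors that bind DNA when they hold their hormone, and coregulator proteins then raise or lower transcription of nearby genes. Aromatase, encoded by Cyp19a1, makes estrogen from androgen within the brain. The androgen receptor gene lies on the X chromosome and is therefore outside the genes compared here. The series concerns how networks of transcription factors act with sex hormones on genes that differ between the sexes in PiC neurons.

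Total counts ran from 12077736 to 15392217 per library. The Y-linked gene Eif2s3y had 1 or 2 counts in each female library and 811 to 1929 in each male library, which matched the labels. The other Y-linked genes checked were low in females, at 0 to 4 counts, but uneven in males, with Ddx3y at 9 in male replicate 3 and 937 to 1203 in the others, Kdm5d at 0, 550, 764 and 0, and Uty at 383, 5, 0 and 0. Xist, which is transcribed from the inactive X chromosome of females, had 0 counts in all 8 libraries, as did Tubb3, a tubulin of neurons, so a count of 0 in these data need not mean that a transcript was scarce. Female libraries held 12871 to 13854 autosomal genes with at least 1 count and male libraries 11957 to 13118. The means were 13441 ± 412 and 12342 ± 531 (SD, n = 4 each; exact two-sided permutation p = 0.0571, adjusted p = 0.371 over 13 library measures; the smallest p that 4 against 4 allows is 0.0286). Male replicate 4, female replicate 2 and male replicate 2 each stood apart from the other 7 on 1 of the first 3 principal components, which held 20.04%, 19.6% and 18.1% of the variance. These 3 libraries also had the fewest autosomal genes with at least 10 counts, 7305 to 7584 against 8593 to 9921 in the other 5. Mitochondrial genes took 12.2% of the counts in female replicate 2, 8.39% in male replicate 4 and 3.81% to 5.68% in the others. Spearman correlations across tested genes were 0.526 to 0.705 between female libraries, 0.518 to 0.646 between male libraries and 0.472 to 0.691 between the sexes, and genes are not independent replicates.

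No autosomal gene passed the test for a sex difference in PrL-projecting neurons. The quasi-likelihood test of edgeR called 0 of 8911 tested genes (0%) at a Benjamini-Hochberg adjusted p of 0.05, and the smallest adjusted p was 0.9999. An unadjusted p under 0.05 was reached by 342 genes (3.84%), of which 152 were fitted higher in males (1.71%) and 190 higher in females (2.13%). In 387 genes (4.34%) the male and female libraries did not overlap, with 192 higher in every male library (2.15%) and 195 higher in every female library (2.19%). The DESeq2 Wald test called 41 genes, 11 higher in males and 30 higher in females. In 18 of these 41 a single library held over 50% of the gene's counts. A fit with no filter on low counts called 4 of 21384 genes, and limma voom called 0 with 614 at an unadjusted p under 0.05. The edgeR fit run on genes of all chromosomes called 0 of 9266, with a smallest adjusted p of 0.185. It thus did not call the Y-linked gene Eif2s3y, at 1 or 2 counts in females and 811 to 1929 in males. A count of 0 calls here therefore need not mean that no gene differed.

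The spread between tubes of one sex was wide. The common dispersion of the fit was 1.80, which is a coefficient of variation of 1.34 between libraries. Only 3923 tested genes (44.0%) had at least 10 counts in all 8 libraries, and 1026 (11.5%) reached 10 counts in just 4. Of 8911 tested genes, 17 had at least 10 counts in every female library and under 10 in every male library. The opposite pattern was found in 5. Such genes could pass the count filter through the higher sex alone. Some crossed the limit by little, as AK157302 did with 5 or 6 counts in females and 11 to 14 in males. The 17 and the 5 are thus a description. With 4 to 5 cells in a tube, a transcript made by 1 cell and a transcript made by all of them cannot be told apart.

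The genes described next are the 12 per direction with the smallest unadjusted p among protein-coding genes that had 10 counts or more in all 4 libraries of the higher sex. None passed the adjusted test. Since they were chosen for their p, their values are a description. In 23 of the 24 genes the male and female libraries did not overlap, the exception being Npy. This held for 4.34% of all tested genes, and a choice by p favours such genes. Levels are CPM, counts over the TMM-scaled library size, and are listed in the order of replicates 1 to 4. Fitted differences are log2 values, male minus female, ± SE.

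Among genes fitted higher in males, several were abundant and steady within each sex. Serinc1, a membrane protein linked to the incorporation of serine into lipids (chr10:57515774-57532530), had 1504, 1247, 1211 and 1331 CPM in females and 2492, 2288, 2462 and 1904 CPM in males. The lowest male library was above the highest female library, and the difference was 0.79 ± 0.20 (unadjusted p = 0.00187, adjusted p = 0.9999, edgeR). Wdr18, a protein of a ribosome-maturation complex (chr10:79960152-79970203), had 163, 116, 65.6 and 83.6 CPM in females and 368, 349, 370.0 and 332 CPM in males. Its male libraries were close to each other and all lay above the female ones, with a difference of 1.73 ± 0.40. The translation initiation helicase Eif4a1 (chr11:69666936-69672423) had 131, 142, 122.9 and 135 CPM in females and 372, 427, 263 and 359.8 CPM in males, a difference of 1.42 ± 0.34. Of its exon bases, 6.62% overlap 2 small predicted genes on the same strand.

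Protein breakdown and the cytoskeleton were represented as well. Psmc5, an ATPase subunit of the proteasome, had 341 to 548 CPM in females and 706 to 1319 CPM in males (1.08 ± 0.28). Skp1a, a core subunit of SCF ubiquitin ligases, had 408 to 842 CPM in females and 1084 to 2021 CPM in males (1.13 ± 0.30), and Rnf14, a ubiquitin ligase that also binds the androgen receptor, had 533 to 744 and 966 to 1418 CPM (0.89 ± 0.24). The actin-capping subunit Capza2 had 826 to 1109 CPM in females and 1451 to 2617 CPM in males (0.93 ± 0.25). Tacc1, a coiled-coil protein that binds microtubule regulators, had 136 to 260.1 CPM in females and 388 to 1081 CPM in males (1.63 ± 0.41). Tmem199, which takes part in assembly of the vacuolar proton pump, had 82.2 to 121 and 239.8 to 414 CPM (1.48 ± 0.38).

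The other genes of this direction were near 0 in females. Cln8, an endoplasmic reticulum protein that ferries lysosomal enzymes, had 0, 1, 0 and 0 counts in females and 1121, 65, 353 and 444 in males. Nphp4, a protein of the cilium base, had 0, 1, 1 and 4 counts in females and 129, 891, 148 and 89 in males. Nol12, a nucleolar RNA-processing protein, had 1, 1, 54 and 3 counts in females and 788, 555, 1127 and 1968 in males. All 3 were present in every male tube, although male replicate 2 alone held most of the Nphp4 counts and male replicate 1 alone 56.5% of the Cln8 counts.

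Genes fitted higher in females were mostly low or absent in male tubes. Kansl2, a subunit of a histone acetyltransferase complex (chr15:98517658-98534264), had 232, 1521, 749 and 747 counts in females and 0, 0, 3 and 3 in males. Jam2, a junctional adhesion molecule (chr16:84774123-84825928), had 257, 66, 57 and 61 counts in females and 0 in every male library. It was the only tested gene with no counts in one sex. Set against 3 counts per library, taken here as an upper limit for a count of 0, its mean was 38.5-fold higher in females. This bound covers counting error only, and a count of 0 need not mean that a transcript was scarce. Dll3, a Notch ligand, had 136, 207, 158 and 427 counts in females and 0, 0, 1 and 0 in males. Pttg1ip, a protein that binds securin, had 283 to 541 counts in females and 1 to 4 in males. Fam193b had 957, 1331, 336 and 1728 counts in females and 2, 1, 21 and 0 in males.

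Enzymes made up part of the same set. Mtmr3, which removes phosphate from phosphoinositide lipids, had 148, 143, 105 and 57.6 CPM in females and 3.73, 3.08, 0.292 and 6.65 CPM in males (log2 -5.04 ± 1.19). Gda, the guanine deaminase, had 492, 718, 429.6 and 384 CPM in females and 173, 304, 182 and 165 CPM in males (-1.30 ± 0.34). Gda was thus present in every tube, at a lower level in all males than in any female. Coasy, which completes coenzyme A synthesis, had 43, 648, 44 and 1724 counts in females and at most 2 in males, and the palmitoyltransferase Zdhhc16 had 32 to 189 and 1 to 3 counts. Of the exon bases of Zdhhc16, 28.7% overlap exons of Mms19 on the opposite strand, and the sources used here do not say whether the counting used strand. Xkr4, a membrane protein of the family that includes phospholipid scramblases, had 228 to 572 CPM in females and 75.0 to 209 CPM in males (-1.68 ± 0.43).

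**Figure D1:**
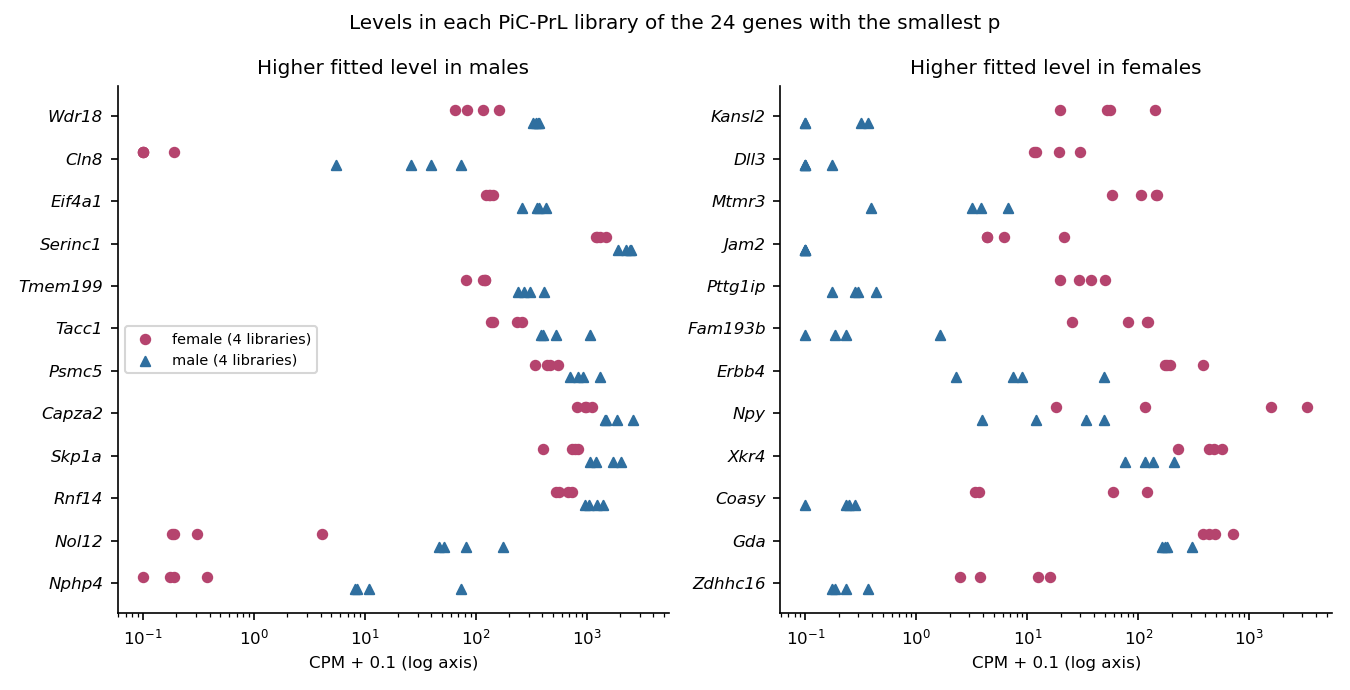
Level of each of the 24 genes with the smallest unadjusted p in the 8 PiC-PrL libraries, on a log axis of CPM + 0.1, with 1 point per library, females as circles and males as triangles. Serinc1, Wdr18 and Gda were present in all 8 libraries with separate groups, while Cln8, Kansl2, Dll3 and Jam2 were near 0 in one sex, and Npy is the gene whose groups overlap.

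Because the series concerns sex hormones, the promoters of these 24 genes were scanned for the core motifs of steroid receptor elements. A window of 250 bases before to 50 after the start site was found in RefSeq (GRCm38.p6) for 15 of them, 7 fitted higher in males and 8 higher in females. The 7 genes had 9 windows and the 8 genes had 8. Matches are counted below per gene for these and per window for the background, so the units are not alike. The estrogen core motif AGGTCA, searched on both strands, occurred in 2 of the 7 (Nol12, Psmc5) and in 2 of the 8 (Fam193b, Pttg1ip), and in 16.3% of all 32851 windows. The androgen and glucocorticoid core motif AGAACA occurred in Psmc5 alone and in 19.0% of all windows. Neither full palindrome, GGTCANNNTGACC or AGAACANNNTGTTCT, occurred in a window of these genes, and they occurred in 0.07% and 0.00913% of all windows. The stretches with the estrogen core motif before the start site are shown on the strand of the gene, with the motif in capitals, to place the matches that were found. They lie at chr15:78934744-78934773 (plus strand), chr11:106256010-106256039 (plus) and chr13:55571127-55571156 (minus). In Psmc5 and Fam193b the capitals are the motif read on the opposite strand.
Nol12: cttgttcgaggcAGGTCAgatgatggaatc
Psmc5: tcacaaaactagTGACCTccagtagagcct
Fam193b: gagtgtgccctcTGACCTgttggcagcagg

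Inhibitory neuron markers were the 1 cell class of 9 whose summed level did not overlap between the sexes. The sums were 3909.8, 1248, 1123 and 6287 CPM in females and 304, 393, 973 and 428 CPM in males. Every female library was above every male library, although female replicates 1 and 4 were far higher than the other 2 and female replicate 3 exceeded male replicate 3 by a small margin. Of the 24 markers, 14 were tested, 13 of those were fitted higher in females, and 3 had an unadjusted p under 0.05 against 2.13% of all tested genes. Their median difference was -1.49, against 0.05 over all tested genes, and it was -0.77 without female replicates 1 and 4. In these bulk tubes fewer cells of a type and less RNA per cell cannot be told apart.

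Erbb4, the neuregulin receptor of many interneurons (chr1:68032186-69108059), had 173, 180.2, 193 and 383 CPM in females and 7.32, 48.7, 2.19 and 8.9 CPM in males (-3.79 ± 0.94, unadjusted p = 0.00189). Its groups were well apart. The neuropeptide gene Npy (chr6:49822710-49829507) had 1562, 18.0, 114 and 3305 CPM in females and 11.97, 3.83, 48.6 and 33.5 CPM in males (-5.67 ± 1.43), so female replicates 1 and 4 carried it and female replicate 2 lay within the male range. Gad1, which makes GABA from glutamate, had 921, 49.5, 48.9 and 337 CPM in females and 28.4, 59.1, 5.11 and 9.52 CPM in males (-3.73 ± 1.10), again high in female replicates 1 and 4. Gad2, the other enzyme of this step, had 9.95 to 195 CPM in females and 32.1 to 92.1 CPM in males (-1.03 ± 0.89), and its difference was 0.33 without those 2 libraries. Slc32a1, the vesicular GABA transporter and a defining marker, had 0 counts in 6 libraries and 37 and 42 in male replicates 2 and 3, and Dlx1, Dlx6 and Sp8 had 0 in all 8. Among peptide genes, Sst reached 19800 counts in female replicate 4, 3675 in male replicate 3 and 1717 in female replicate 3, with 5 to 144 in the other 5. Calb2, a calcium buffer of some interneurons, went the other way, with 0 to 26 counts in females and 5 to 425 in males.

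The summed level of excitatory neuron markers overlapped between the sexes. It was 1943 to 3186 CPM in females and 2162 to 2961 CPM in males. Of 15 tested members 8 were fitted higher in males (53.3%, against 51.8% of all tested genes). Camk2a, a kinase of excitatory synapses, had 625 to 850.5 CPM in females and 656 to 973 CPM in males (0.21 ± 0.24), and the vesicular glutamate transporter Slc17a7 had 10.4 to 77.3 and 29.3 to 45.9 CPM (-0.18 ± 1.10). The pan-neuronal gene Snap25, a synaptic fusion protein, was at 6243 to 16095 CPM in the 8 libraries. Nptx1, a secreted pentraxin of synapses, was the one excitatory marker with an unadjusted p under 0.05, with 104, 326, 149 and 77.1 CPM in females and 35.1, 62.7, 42.3 and 15.7 CPM in males (-2.07 ± 0.73). Its groups did not overlap, and it was the 1 member of which this held. In each case 1 of 15 is 6.67%, against 3.84% of all tested genes for the p and 4.34% for the lack of overlap.

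Non-neuronal markers were found in every tube. Astrocyte markers summed to 1804 to 2382 CPM in females and 1993 to 6562 CPM in males, with the top value in male replicate 4, and microglia markers to 238 to 516 and 393 to 1003 CPM. Of 12 tested astrocyte markers 8 were fitted higher in males (66.7%, against 51.8% of all tested genes). An unadjusted p under 0.05 was reached by 2 (16.7%, against 3.84% of all tested genes), both with overlapping groups. These were Aldoc, an aldolase enriched in astrocytes, with 593 to 1378 CPM in females and 1269 to 4370 CPM in males (1.12 ± 0.40), and the filament gene Gfap, with 0 to 6.09 CPM in females and 59.6, 0.25, 83.9 and 132 CPM in males (4.73 ± 1.99). The astrocyte channel gene Aqp4 was at or under 0.719 CPM in 3 male libraries and at 0 in female replicate 4. Among microglia markers Aif1, a calcium-binding protein, had 24.6 to 31.3 CPM in females and 46.7 to 260.3 CPM in males (1.86 ± 0.89, unadjusted p = 0.0603) without overlap, while P2ry12 and Trem2 had 0 counts in all 8 libraries. The median difference of the 12 tested microglia markers was 0.78, and 0.04 without the 3 libraries that stood apart. Red blood cell markers summed to 549 CPM in female replicate 3 and 3.26 to 20.3 CPM in the other females, and to 132 to 1204 CPM in males. Oligodendrocyte markers overlapped widely, at 226 to 1276 and 324 to 1492 CPM, as did precursor markers, at 84.6 to 423 and 10.7 to 185 CPM. Endothelial and mural markers were at or under 142 CPM in every library, with Cldn5 at 0 in all 8. The part of these other cells in any sex difference here was not tested.

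**Figure D2:**
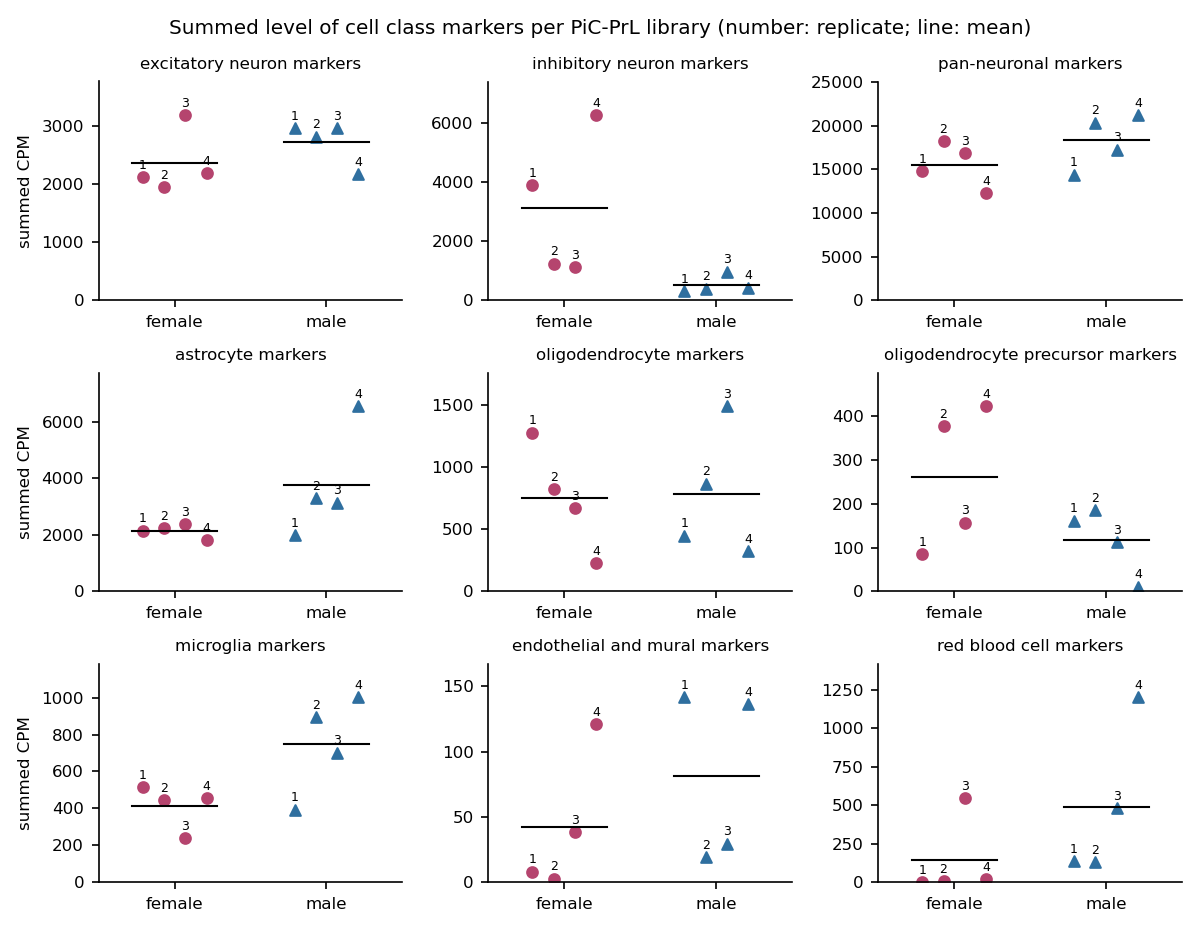
Summed CPM of the markers of 9 cell classes in each PiC-PrL library, with females as circles, males as triangles, the replicate number above each point and the mean as a line. Only the inhibitory neuron panel has separate groups, with female libraries at 1123 to 6287 CPM and male libraries at 304 to 973 CPM.

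Steroid receptor genes varied from tube to tube more than between the sexes. The list of 16 autosomal genes also held related ones, namely Esrra, Esrrb, Esrrg, Vdr, Pgrmc2 and the Paqr genes. Of the 16, 9 were tested, 6 were fitted higher in males and 3 higher in females, and none had an unadjusted p under 0.05. The tested members were Esr1, Pgr, Nr3c1, Nr3c2, Esrrg, Pgrmc2, Paqr7, Paqr8 and Paqr9, so the split is not one of hormone-binding nuclear receptors alone. The estrogen receptor gene Esr1 had 4, 10, 780 and 11 counts in females and 3, 4, 12 and 20 in males. A single tube, female replicate 3, thus held nearly all of its counts, and the fitted difference of -4.21 ± 2.12 became 0.22 without it. Esr2, the other nuclear estrogen receptor, had 0 or 1 counts in females and 1 to 5 in males, and the membrane receptor gene Gper1 had 0 in all 8. The progesterone receptor gene Pgr had 414, 1, 824 and 3 counts in females and 749, 2, 124 and 1633 in males (1.09 ± 1.99), so each sex had tubes with many and tubes with almost none. The glucocorticoid receptor gene Nr3c1 had 733 to 2210 counts in 6 libraries but 24 in female replicate 2 and 22 in male replicate 4 (0.14 ± 1.22). The mineralocorticoid receptor gene Nr3c2 had 4 to 1758 counts in females and 35 to 652 in males (-1.62 ± 1.54).

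Counts on genes of steroid synthesis and conversion were uneven from gene to gene. Cyp19a1 had at most 1 count in any library, and Cyp17a1, Srd5a1 and Hsd17b1 were listed at 0 in all 8, as was Tubb3, so these zeros are not read as low expression. Of 20 enzymes and carriers 5 were tested, 2 fitted higher in males and 3 in females. Hsd17b12, which lengthens fatty acids and can reduce estrone, had 33.4 to 209 CPM in females and 13.6 to 44.7 CPM in males (-1.96 ± 1.05, unadjusted p = 0.0863). Sult4a1, a brain sulfotransferase-like protein, had 156 to 375 CPM in females and 251 to 512 CPM in males (0.58 ± 0.38).

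Nuclear receptor coregulators were fitted higher in females in 13 of 18 cases, with a median of -0.33 that kept its sign in all 21 alternative settings. With single libraries left out it ran from -0.83 without male replicate 3 to -0.18 without male replicate 4. Over the other settings it ran from -1.09 to -0.24. None had an unadjusted p under 0.05. Nrip1 and Tbl1xr1 were the 2 members (11.1%) without overlap, both higher in females, against 2.19% of all tested genes. Nrip1, a corepressor of estrogen receptors, had 78.0, 59.7, 93.7 and 76.7 CPM in females and 35.3, 14.4, 1.24 and 0.719 CPM in males (-2.58 ± 1.35). Its female tubes were close to each other and its male tubes ranged widely. Ncoa1, a coactivator, had 1462 to 2036 counts in females and 1376 to 2233 in males (-0.03 ± 0.46). A list of 25 estrogen-responsive genes had 15 tested members, 6 fitted higher in males and 9 in females, with a median of -0.65 that was 0.32 without the 3 libraries that stood apart and turned to 0.26 without female replicate 2 and to 0.18 without female replicate 4. Rprm, a p53 target, had 34, 15, 101 and 1 counts in females and 1084, 909, 71 and 2164 in males (4.87 ± 1.64), and the growth factor gene Igf1 had 471, 2, 296 and 1597 counts in females and 59, 1, 1 and 0 in males (-5.41 ± 2.41, unadjusted p = 0.046).

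Genes of energy metabolism and protein turnover were fitted higher in males by small steps. Nuclear-encoded subunits of oxidative phosphorylation were fitted higher in males in 62 of 73 cases (84.9%, against 51.8% of all tested genes), with a median of 0.31, yet just 3 had an unadjusted p under 0.05 in this direction and 1 in the other, together 5.48% against 3.84% of all tested genes. Enzymes of glycolysis and the citric acid cycle were fitted higher in males in 26 of 30 cases with a median of 0.23, and 6 (20%) had an unadjusted p under 0.05 with males higher, against 1.71% of all tested genes. Proteasome subunits were fitted higher in males in 32 of 42 cases with a median of 0.33, and cytosolic ribosomal proteins in 48 of 70 with a median of 0.16. When each library's trend with gene span was removed, these medians were -0.04, 0.06, 0.18 and -0.28, so the direction of the oxidative and ribosomal lists turned.

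Eno1, the enolase of glycolysis, had 2958, 1044, 2858 and 1689 CPM in females and 3331, 4126, 4879 and 5268 CPM in males (1.04 ± 0.32, unadjusted p = 0.00729), with all males above all females. Pfkp, a phosphofructokinase, had 135 to 457 and 566 to 879.8 CPM (1.21 ± 0.41). Ndufs7, a subunit of complex I, had 138 to 264 CPM in females and 357 to 519.6 CPM in males (1.04 ± 0.33), and Ndufs6, of the same complex, 91.8 to 105 and 112 to 308 CPM (1.14 ± 0.47). In the proteasome list Psmc3, another ATPase of the complex, had 201 to 542 and 526 to 795 CPM (1.02 ± 0.36). Among lists with at least 5 tested members, genes of sterol synthesis had the highest median, 0.89 over 19 members, but 8 of the 19 were fitted higher in females and the median was 0.07 without the 3 libraries that stood apart. Msmo1, a demethylating enzyme of cholesterol synthesis, had 36.8 to 211 CPM in females and 156 to 471 CPM in males (1.46 ± 0.62). Rab11b, a GTPase of recycling endosomes, had 229, 266, 259.9 and 302 CPM in females and 503, 427, 459 and 602 CPM in males (0.91 ± 0.28) without overlap.

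Most tested genes of cell contact and synaptic structure were fitted higher in females. Synaptic adhesion genes were fitted higher in females in 36 of 49 cases with a median of -0.71, axon guidance genes in 29 of 41 with a median of -0.77, and postsynaptic scaffold genes in 21 of 29 with a median of -0.48. Unadjusted p-values under 0.05 numbered 6 (12.2%), 4 (9.76%) and 5 (17.2%) in this direction, against 2.13% of all tested genes, and 0 in the other. With the span trend removed the medians were -0.15, -0.21 and -0.03, and without female replicate 2 those of adhesion and axon guidance genes were -0.38 and -0.17. Cadherins and protocadherins were fitted higher in females in 14 of 21 cases with a median of -0.31, which turned to 0.13 with the span trend removed. Genes of synaptic vesicles and release were nearer an even split, with 31 of 52 higher in females and a median of -0.21. Dlg2, a scaffold of glutamate synapses, had 904, 2279, 986 and 1439 CPM in females and 397, 789, 439 and 719.7 CPM in males (-1.26 ± 0.36). Its groups did not overlap, and female replicate 2 was the highest library, as it also was for Epha6, an ephrin receptor, with 147, 1332, 272 and 275 CPM in females against 94.0, 133, 104 and 43.0 CPM in males (-2.44 ± 0.68). Kalrn, an exchange factor of dendritic spines, had 285 to 490.3 CPM in females and 86.0 to 248 CPM in males (-1.08 ± 0.40). Sema3a, a repulsive guidance cue, had 1.32 to 153 CPM in females and 0.0899 to 0.876 CPM in males (-7.09 ± 2.16).

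Lists of ion channels and receptors differed in direction. Potassium and HCN channels were fitted higher in females in 32 of 46 cases with a median of -0.39, which ran from -0.64 without male replicate 2 to -0.16 without female replicate 2 and was -1.03 with genes detected per library as a covariate. Sodium and calcium channels split into 10 higher in males and 13 higher in females, and their median of -0.17 turned to 0.22 with the span trend removed. Receptors for monoamines, acetylcholine and peptides split into 7 and 7. Glutamate receptors had a median of -0.61, with 22 of 31 fitted higher in females, and -0.17 with the span trend removed. Grik2, a kainate receptor subunit, had 118 to 354 CPM in females and 61.1 to 89.0 CPM in males (-1.52 ± 0.49).

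Transcription regulators gave a mixed picture. Chromatin modifiers were fitted higher in females in 55 of 80 cases with a median of -0.49, which kept its sign in all 21 settings, and 1 of them (1.25%) had an unadjusted p under 0.05, against 3.84% of all tested genes. That gene, Arid1a, a subunit of the BAF remodelling complex, had 144, 131, 139 and 244 CPM in females and 48.7, 0.333, 26.2 and 0.988 CPM in males (-3.11 ± 1.28). Forebrain transcription factors split into 21 and 26, and zinc finger genes of the Zfp family into 91 higher in males and 76 higher in females. Zfp697 had 30, 623, 627 and 619 counts in females and 7, 1, 4 and 3 in males, while Zfp180 had 1.5, 1.47, 4.98 and 0 CPM in females and 77.4, 117, 21.4 and 84.8 CPM in males (5.23 ± 1.71). The clock repressors Nr1d1 and Nr1d2 were fitted in opposite directions, at 2.74 ± 1.31 and -3.35 ± 1.41. Of 26 tested activity-regulated genes 17 were fitted higher in females, with a median of -0.42 that turned to 0.10 without female replicate 4 and to 0.18 without female replicates 1 and 4. Egr1, an immediate early transcription factor and the member with the smallest p, had 343, 381, 160.1 and 473 CPM in females and 268, 144, 83.3 and 110.3 CPM in males (-1.16 ± 0.48). Fos, the classic marker of recent firing, had 3477 to 20398 counts in females and 2920 to 22326 in males (0.08 ± 0.74), with the top values in replicate 4 of each sex.

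**Figure D3:**
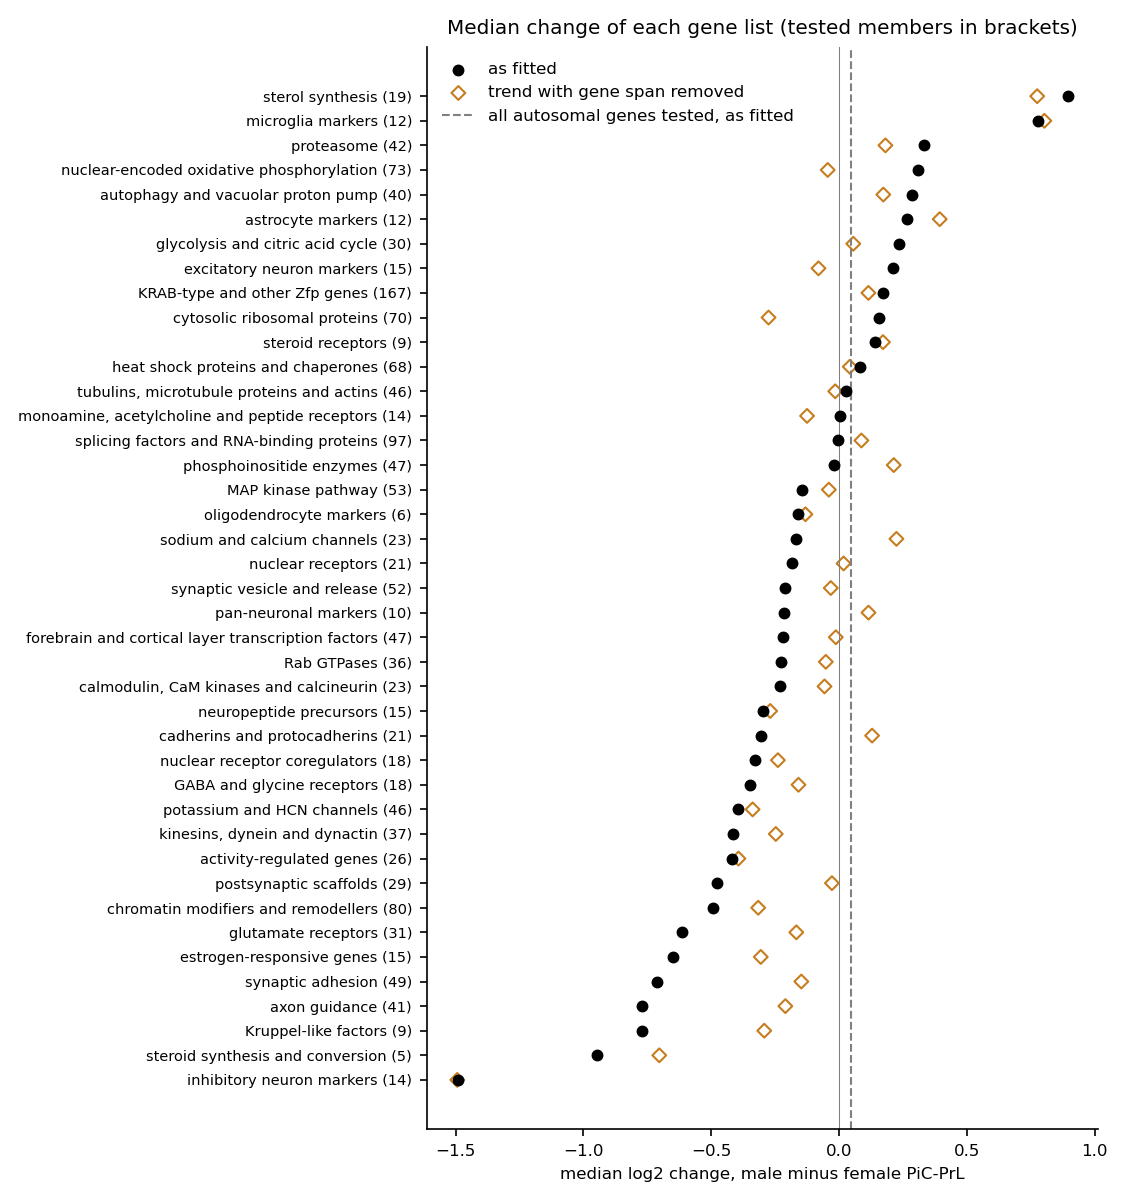
Median log2 difference, male minus female, over the tested members of each list with at least 5 tested genes, as fitted (filled) and with each library's trend with gene span removed (open), beside the median of all tested autosomal genes (dashed, 0.05). Inhibitory neuron markers lie lowest at -1.49 in both, while the oxidative phosphorylation, ribosomal, adhesion and scaffold lists move towards or past 0 when the trend is removed.

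The fitted difference ran with the length of the gene on the chromosome. Protein-coding genes were put into 5 groups of 1675 by span, and the median difference was 0.25 in the shortest group (0.39 to 10.1 kb), then 0.19, 0.09 and -0.14, and -0.32 in the longest (97.9 to 4435 kb). An unadjusted p under 0.05 with females higher was reached by 9, 16, 26, 42 and 94 genes from the shortest to the longest group, and with males higher by 38, 43, 24, 23 and 20. The libraries of each sex were not uniform. Relative to each gene's mean over the 8 libraries, the median level of the longest genes was 0.17, 0.48, 0.25 and 0.42 in females and -0.08, 0.04, -0.08 and -0.33 in males. All females were above all males for this group, whereas for the shortest genes female replicate 2 was lowest at -0.31 and the other 7 lay between 0.03 and 0.34. The median span was 327 kb over the adhesion list and 3.3 kb over the ribosomal list, so these lists sat at opposite ends of the trend. With the trend removed edgeR called 0 genes, with 153 at an unadjusted p under 0.05 higher in males and 148 higher in females. What lay behind the trend was not tested.

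**Figure D4:**
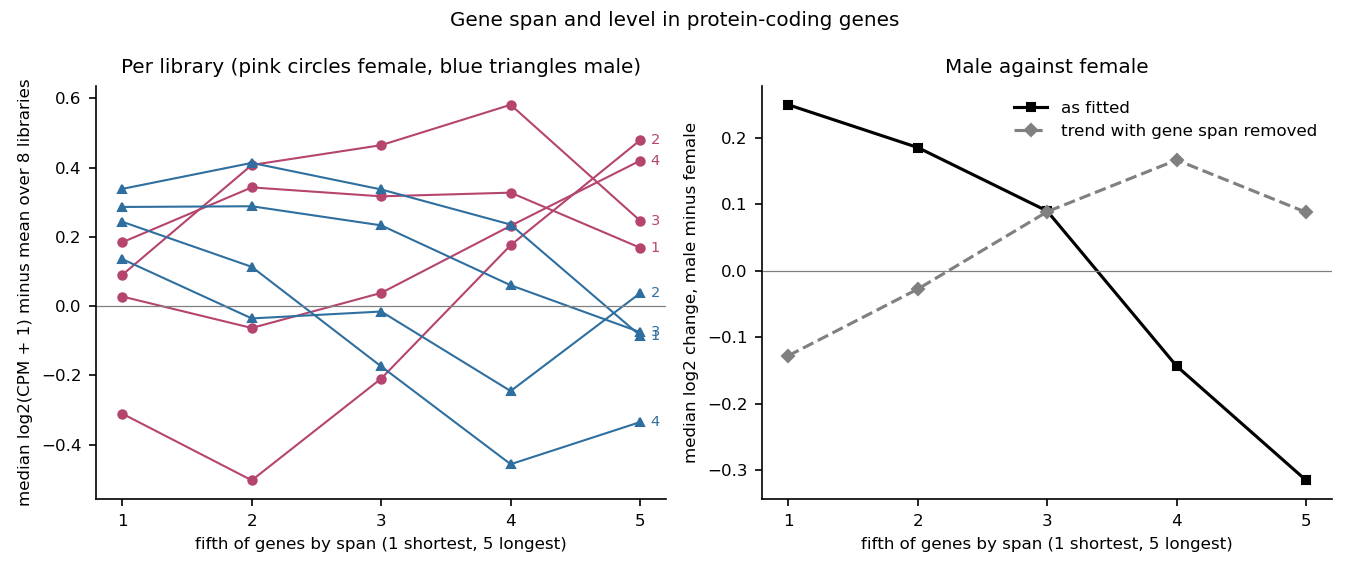
Median level per library (left, log2(CPM + 1) minus the mean over 8 libraries) and median male minus female log2 difference (right) in 5 groups of 1675 protein-coding genes ordered by span. The right panel falls from 0.25 in the shortest to -0.32 in the longest group as fitted, and lies between -0.13 and 0.17 after the trend with span is removed.

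To see whether a sex difference was particular to the PrL projection, it was set against that of PiC neurons labelled from MeA in a fit of all 14 libraries. The difference between the 2 sex differences passed for 0 of 14039 genes (0%) with edgeR, for which the smallest adjusted p was 0.152 and 2178 genes had an unadjusted p under 0.05, while the DESeq2 Wald test called 1106. The 24 genes named above were chosen on their PrL difference, so the comparison of the differences is a description for them. The size of the MeA difference rests on other libraries. Its SE and p, however, use a spread fitted over all 14 libraries, including the PrL libraries on which the genes were chosen. The MeA p-values of these genes are therefore not independent of the choice and are a description too. Of the 12 genes fitted higher in PrL males, 10 were fitted lower in MeA males, as were 6513 of all 14039 tested genes. Among these 10, 4 had an unadjusted p under 0.05 (Wdr18, Tacc1, Psmc5 and Rnf14), against 2.04% of all tested genes in that direction. Of the 12 genes fitted higher in PrL females, 7 were fitted higher and 5 lower in MeA males, where 53.6% of all tested genes were fitted higher. An unadjusted p under 0.05 with MeA males higher was reached by 2 of the 12 (Erbb4 and Xkr4), against 10.2% of all tested genes.

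Wdr18 had opposite signs of like size, at 1.73 ± 0.49 in PrL and -1.75 ± 0.57 in MeA neurons (difference 3.48 ± 0.75, unadjusted p = 0.000224, adjusted p = 0.152, edgeR). Psmc5 was at 1.09 ± 0.31 and -1.08 ± 0.36, and Rnf14 at 0.89 ± 0.24 and -0.83 ± 0.28. Erbb4 was at -3.80 ± 1.13 in PrL and 3.57 ± 1.28 in MeA neurons, and Gad1 was fitted higher in MeA males as well, at 4.75. Capza2, Skp1a and Kansl2 had MeA differences near 0, at -0.05 ± 0.31, 0.13 ± 0.35 and 0.21 ± 1.57. The 3 male MeA libraries had 18130 to 19083 autosomal genes with at least 1 count, against 13120 to 14290 in the female MeA libraries, and the part of this gap in the MeA differences was not tested.

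**Figure D5:**
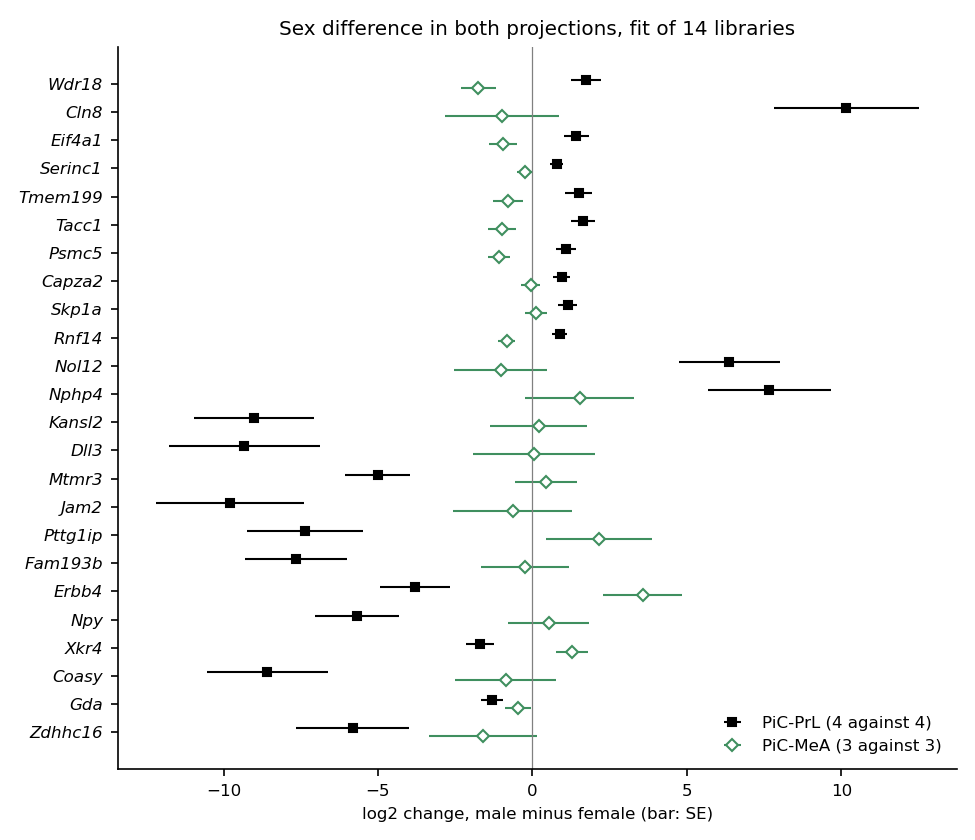
Log2 sex difference, male minus female, of the 24 named genes in PiC-PrL libraries (squares, 4 against 4) and PiC-MeA libraries (diamonds, 3 against 3) from the fit of all 14 libraries, with SE as bars. Wdr18, Psmc5, Rnf14, Erbb4 and Xkr4 lie on opposite sides of 0 in the 2 projections, while Capza2, Skp1a and Kansl2 have MeA values near 0.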

How the data were processed

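The authors deposited raw gene counts, 1 column per library, made with Trimmomatic 0.39, HISAT2 2.2.1, SAMtools and featureCounts 2.0.1 on mm10, per the submitters' processing notes. The sources used here do not give the annotation release, the strand setting or the treatment of shared reads. Of 55401 genes, 55141 matched GENCODE M21 (GRCm38) without the version (54349 with it), 260 were left out, and 50957 were autosomal. From the 8 PiC-PrL columns alone, genes were kept by filterByExpr of edgeR 4.0.16 (R 4.3.3; minimum count 10, minimum total 15), scaled by TMM over autosomal counts and fitted by robust quasi-likelihood, 1 mean per sex. P-values were adjusted by Benjamini-Hochberg over all genes tested, and SE is the size of the log2 change over the square root of F. Exact two-sided permutation tests were used for library measures. Sums of marker levels are described without a p-value. Their planned tests were run, and they count among the 13 library measures over which p-values were adjusted. The script was tested on simulated counts. Alternatives were DESeq2 1.42.0, limma 3.58.1 voom with quality weights, other scaling and filters, and genes of all chromosomes. Others were a span correction by lowess offsets (width 0.3), a covariate, a replicate block, and leaving out libraries. Named genes were the 12 per direction with the smallest p among protein-coding, non-predicted genes that had 10 counts or more in all libraries of the higher sex, the 2 such members with the smallest p in each list, and a fixed set of receptors and markers; a few others (Calb2, Sst, Igf1, Fos, Ncoa1, Tbl1xr1 and genes at 0) were chosen after their values were seen, and 3 genes that the rule names are not reported here. The members, lists and rules were chosen with earlier results of these data known.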

Additional observations from a re-analysis of the deposited data

Results flagged for a closer look

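In each sex the 4 libraries were checked for 1 value far from the other 3. Of 236 groups of 4 values, 20 exceeded the 95% limit for the gap over the range, and chance alone marks about 1 in 20. No explanation was tested for any of them.

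Single female libraries stood apart in 10 cases. Female replicate 2 was low in Tmem199 (82.2 CPM; gap over range 0.915) and high in Klf3 (139 CPM; 0.8292) and in mitochondrial share (12.2%; 0.854). Female replicate 3 was high in Nol12 (4.01 CPM; 0.928), Esr1 (57.9 CPM; 0.904) and summed red blood cell markers (549 CPM; 0.969). Female replicate 4 was high in Erbb4 (383 CPM; 0.862) and Arid1a (244 CPM; 0.848) and low in Aif1 (24.6 CPM; 0.834). Female replicate 1 was low in Zfp697 (2.5 CPM; 0.901).

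Single male libraries stood apart in 10 cases. Male replicate 2 was high in Nphp4 (74.1 CPM; 0.872), Gda (304 CPM; 0.836) and Aif1 (260.3 CPM; 0.839). Male replicate 4 was low in Tnr (7.19 CPM; 0.914) and Nr3c1 (1.98 CPM; 0.888) and high in Rps19 (268 CPM; 0.831). Male replicate 3 was high in Fam193b (1.53 CPM; 0.868), Sema3a (0.876 CPM; 0.875) and Aqp4 (67.1 CPM; 0.872), and male replicate 1 was low in Cnp (21.8 CPM; 0.875).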

How the results depend on the processing

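The count of genes called was 0 under every alternative run except 2, and also in the run on genes of all chromosomes, Y-linked genes included. The 2 exceptions were no filter, which called 4 (Eno1, Gad1, Ubb and Epha6), and the DESeq2 Wald test. The latter called 41, of which 32 had groups without overlap. Leaving out each library in turn gave 0 calls each time, with 371 to 584 genes at an unadjusted p under 0.05, and leaving out the 3 libraries that stood apart or female replicates 1 and 4 gave 0 calls with 520 and 400. The number of genes whose groups did not overlap was 628 to 791 with a library left out, since fewer libraries must then separate, against 367 to 376 under other scalings. For the difference between the projections the DESeq2 Wald test called 1106 genes and the other settings 0. With genes detected per library as a covariate, 58 genes had an unadjusted p under 0.05 with males higher and 256 with females higher. The median of all tested genes was 0.05 as fitted, -0.16 with voom, -0.12 with no filter and -0.09 with the replicate block.

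Same-numbered male and female libraries did not deviate together (correlations of 0.0121, 0.0489, 0.0341 and 0.00841 for numbers 1 to 4; 2 of 4 matched their own number best), so the numbers were not taken as pairs. The replicate block called 0 genes, with 297 at an unadjusted p under 0.05, and turned Cx3cr1 to -0.91 and Slc17a7 to 0.10.

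Values that changed direction belonged to genes with small or uneven differences, and the cause was not tested. With the covariate, Snap25 was -0.10, Slc1a3 -0.92, Cnp -0.24, Mbp 0.48, C1qb -0.014, Hba-a1 -0.60, Hba-a2 -0.83, Paqr9 1.90, Atp6v0a1 -0.033, Dctn4 -0.77 and Cx3cr1 -3.86. Without the 3 libraries that stood apart, Cnp was -0.0089, Mbp 0.39, Lhfpl3 1.61, Paqr9 0.11, Sult4a1 -0.020, Dctn4 -0.48, Pgr -0.12, Aqp4 0.58 and Cx3cr1 -3.32. With voom, Cnp was -0.11, Cx3cr1 -1.72 and Slc17a7 0.41. With the span trend removed, Syt1 was 0.074 and Lhfpl3 0.50, and without female replicates 1 and 4 Gad2 was 0.33. Leaving out single libraries gave ranges of -0.88 to 0.013 for Mbp, -3.84 to 0.65 for Lhfpl3, -2.45 to 0.91 for Paqr9, -0.25 to 0.56 for Nr3c1, -4.96 to 0.22 for Esr1, -0.30 to 2.11 for Pgr, -1.20 to 1.23 for Cx3cr1 and -0.53 to 0.33 for Slc17a7. The male minus female difference in mitochondrial share ran from -1.99 to 0.63 percentage points, positive without female replicate 2. That in summed oligodendrocyte markers ran from -202 to 209.997 CPM, negative without female replicate 4 or male replicate 3.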

Other observations

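Neuropeptide genes differed sharply from tube to tube. Of 35 precursors 15 were tested, 7 fitted higher in males and 8 higher in females. Hcrt, the precursor of the orexins, had 1, 1, 108 and 1 counts in females and 17626, 555, 244 and 0 in males (log2 7.19, unadjusted p = 0.0158, adjusted p = 0.9999, edgeR), and male replicate 1 alone held most of them. Pmch, the precursor of melanin-concentrating hormone, had 101, 0, 412 and 0 counts in females and 509, 346, 0 and 481 in males. Tac1, the precursor of substance P, had 97, 0, 392 and 2067 counts in females and 1, 0, 1 and 0 in males, and Cort, a somatostatin-like peptide gene, had 367, 0, 338 and 793 in females and 99, 1, 0 and 33 in males. Cck was high in every tube, with 4571 to 17435 counts in females and 9162 to 14496 in males. The choice of these peptides was made with their values in view.

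Of 8911 tested genes, 22 had at least 10 counts throughout one sex and fewer than 10 in each library of the other. Among these 22, 17 were higher in females, and 4 of the 17 are given. Inpp5a, which removes phosphate from inositol trisphosphate, had 534, 110, 237 and 625 counts in females and 0, 0, 3 and 3 in males. Gab1, an adaptor of growth factor receptors, had 351, 863, 245 and 500 counts in females and 0, 2, 0 and 5 in males. Mov10, an RNA helicase, had 44, 59, 47 and 70 counts in females and 2, 0, 5 and 1 in males. The cystine carrier gene Slc7a11 had 241, 10, 480 and 33 counts in females and 3 to 8 in males. These 4 genes were also chosen after their values were seen.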
